A study of Mus musculus with 24 samples.

Results

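The lungs of mice dosed with rCNT, rigid carbon nanotubes, were compared with those of mice dosed with SES, a carbon nanomaterial whose full name the labels do not give. The 6 samples were chosen by title, 3 ending in rCNT (numbered 4, 5 and 6) and 3 ending in SES (10, 11 and 12), out of 24 in the series. The pair was set up as the strongest against the weakest response of the series, so the number of genes that differ is given as a description. All mice were female C57BL/6, 7 to 8 weeks old, and received 10 µg of material a day in 50 µl of saline (PBS) by oropharyngeal aspiration on 4 days, with lungs taken 24 h after the last dose. In oropharyngeal aspiration, the fluid is dropped into the throat and breathed in. Vehicle mice (Ctrl, 3 samples numbered 1, 2 and 3) received PBS alone by the same route. Each sample pooled 2 RNA samples of its group, so the spread between samples is a spread between pools. RNA was hybridised to 2-dye arrays on which each dye carried its own sample, and the deposited values are signals on a log2 scale.

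Long, stiff fibres that macrophages cannot fully engulf are known to provoke inflammation in the lung. Resident macrophages and epithelium release chemokines that draw in monocytes, neutrophils and eosinophils, and the alarmin IL-33, set free by stressed lung cells, starts type 2 immunity, the arm that also drives allergy. Type 2 cytokines turn airway secretory cells into mucus-making goblet cells and switch macrophages to a program marked by arginase, resistin-like and chitinase-like proteins.

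The tissue was lung in every pool. Sftpc, the surfactant protein of alveolar type 2 cells, averaged 17.42 ± 0.57 in rCNT, 17.47 ± 0.44 in SES and 17.62 ± 0.32 in Ctrl (SD, n = 3 each). Scgb1a1, the main secretory protein of airway club cells, averaged 17.31 ± 0.06 in rCNT, 17.46 ± 0.01 in SES and 17.46 ± 0.03 in Ctrl. Both lay near the top of the signal range. The SD of a sample around the plain means of its group was 0.24 to 0.47 in the rCNT pools, 0.15 to 0.21 in the SES pools and 0.17 to 0.26 in the Ctrl pools. The highest, 0.47, belonged to rCNT 4. Its array partner Graphite 16 shared its deviations from a fit of group and dye (residual correlation 0.827, against a median of 0.411 over the 12 arrays). Each rCNT pool lay on a different slide of the 3, while 2 SES pools shared slide 1 with rCNT 4 and 1 shared slide 2 with rCNT 6.

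Of 16530 genes tested, 2819 differed between rCNT and SES at an adjusted p under 0.05 (limma, Benjamini-Hochberg), which is 17.1%. Of these, 1659 were higher in rCNT (10.0% of genes tested) and 1160 were lower (7.02%). Large differences lay mostly on the higher side, with 425 genes called at least 2-fold higher (2.57%) against 110 at least 2-fold lower (0.665%), and 65 against 6 at 4-fold. The median difference over all genes was -0.01 on the log2 scale, and the median standard error was 0.16. In 31.8% of the genes tested the rCNT and SES pools did not overlap, with rCNT above in 17.4% and below in 14.4%. The count was 569 when only the 6 rCNT and SES samples were fitted and 84 with the array as a fixed term. Of the pools left out one at a time, SES 11 moved the count most, to 1177 genes, 785 higher and 392 lower. The number of lower genes was also 752 without rCNT 4 and 637 without SES 10. With slide as a term in the fit, 3979 genes were called and 49% of them were higher in rCNT, against 58.9% without it. Within slide 1 (rCNT 4 against SES 11 and 12) the count was 4261, with 42.8% higher, and within slide 2 (rCNT 6 against SES 10) it was 1910, with 55.1% higher. In these the lone pools are assumed to vary like the other groups of the fit. On slide 2 the rCNT and SES pools carried opposite dyes, and of all groups there only Graphite had both dyes, so group and dye can hardly be told apart on that slide. P-values measure the spread between pools only, and the main fit estimates that spread over all 24 samples, not from the rCNT and SES pools alone.

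Spots without a gene name were tested apart, and 443 of them (2.66%) were called. In the same fit, 3598 genes (21.8%) differed between rCNT and Ctrl and none between SES and Ctrl by limma's adjusted p, where 747 genes (4.52%) had an unadjusted p under 0.05. Both comparisons use the same 3 Ctrl pools, and the rCNT and SES pools enter each other's contrast, so levels in the 3 groups are given side by side below. Fitted differences allow for dye and for the shared array, and so they differ somewhat from the plain difference of group means. A gene was tested where its signal exceeded the 40th percentile of the spots in at least 3 samples of any group. The rCNT pools alone could thus bring a gene into a list, which favours higher members in the list counts and medians.

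**Figure D1:**
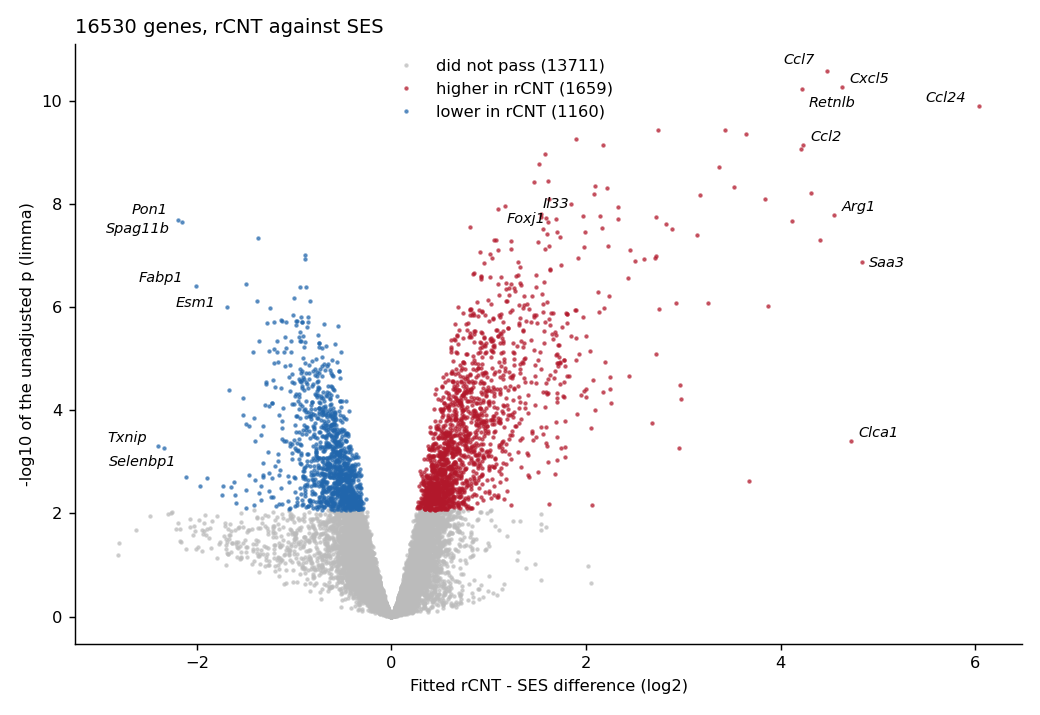
Fitted difference rCNT minus SES (x axis, log2) against the −log10 of the unadjusted limma p (y axis) for the 16530 genes tested. The 1659 genes higher in rCNT (red) reach 6.04 at Ccl24, while the 1160 lower ones (blue) reach -2.40 at Txnip. Grey points on the left at moderate p are genes with a large but uneven difference.

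The highest gene was Ccl24, the chemokine eotaxin-2 that attracts eosinophils. Its log2 signal was 12.03, 13.01 and 13.35 in rCNT 4, 5 and 6, against 6.32, 6.15 and 6.19 in SES 10, 11 and 12 and 6.40, 6.05 and 6.30 in Ctrl 1, 2 and 3. Every rCNT pool lay above every other pool, and the SES and Ctrl pools overlapped. The fitted difference was 6.04 ± 0.49 (SE), a 65.9-fold one (adjusted p = 5.05e-07). In the other 4 materials of the series the group means of Ccl24 ran from 6.74 to 6.91.

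All 8 tested CC chemokines that attract monocytes were higher in rCNT, with a median difference of 2.72, against -0.01 for all genes. Ccl2, the main ligand of the monocyte receptor Ccr2, stood at 11.99, 12.33 and 12.99 in the rCNT pools, against 7.94, 7.43 and 7.80 in the SES pools and 6.88, 7.47 and 7.53 in the Ctrl pools, a difference of 4.23 ± 0.38 (adjusted p = 1.19e-06). The groups rCNT and SES did not overlap, and the SES pools overlapped Ctrl. Ccl7, a close relative of Ccl2, stood at 11.13, 11.24 and 12.14 after rCNT, against 6.87, 6.48 and 6.88 after SES and 6.19, 6.20 and 6.44 in Ctrl, a difference of 4.47 ± 0.33. Ccl8 rose by 4.12 ± 0.46 and Ccl12, a mouse chemokine of the same branch, by 2.72 ± 0.30. The smallest difference of the 8 was that of Ccl6, 0.96 ± 0.22. By position, Ccl2, Ccl7, Ccl11, Ccl12, Ccl8 and Ccl1 lie in this order on mouse chromosome 11 (assembly GRCm38.p6), and all 6 were higher in rCNT, from 1.52 for Ccl1 to 4.47 for Ccl7.

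Eosinophil and T helper 2 chemokines were higher in 5 of 5 tested, with a median of 3.17. Beside Ccl24, Ccl11 (eotaxin-1) differed by 3.17 ± 0.33. Ccl17, which draws Ccr4-bearing T helper 2 cells, stood at 13.28, 13.91 and 13.96 in rCNT, against 9.90, 10.02 and 10.38 in SES and 9.68, 9.60 and 9.41 in Ctrl. The 3 groups did not overlap, and the rCNT minus SES difference was 3.43 ± 0.30 (adjusted p = 1.02e-06). Ccl1 and Ccl22 differed by 1.52 ± 0.14 and 1.13 ± 0.15, but all 3 SES pools were below the 40th percentile of the spots (5.69 to 5.75), where the size of a difference is uncertain. The counts of the monocyte and eosinophil chemokine lists were 7 to 8 and 5 when any one rCNT or SES pool was left out.

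Of the chemokines that attract neutrophils through Cxcr2, Cxcl1, Cxcl2, Cxcl3 and Cxcl5 were higher in rCNT (4 of 6 tested, median 1.76), and the epithelial Cxcl15 and the platelet gene Ppbp did not pass. In 4 of the 6 all SES pools were above the 40th percentile. Cxcl5, made by lung epithelium, stood at 10.05, 10.76 and 11.61 after rCNT, against 6.04, 5.80 and 5.78 after SES and 5.79, 5.52 and 5.80 in Ctrl. The SES pools lay just above the 40th percentile, and the difference was 4.63 ± 0.36 (adjusted p = 3.25e-07). Cxcl1 had 9.37, 9.92 and 10.14 in the rCNT pools, against 7.09, 6.92 and 7.06 in the SES pools and 6.46, 6.54 and 6.37 in Ctrl, a difference of 2.82 ± 0.32, and the SES pools lay above all 3 Ctrl pools. Cxcl15 differed by -0.61 (95% interval -1.69 to 0.48) and Ppbp by -0.40 (-0.98 to 0.18).

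Cxcl5, Ppbp, Pf4, Cxcl3, Cxcl15, Cxcl1 and Cxcl2 lie in this order on chromosome 5 (GRCm38.p6). Uncalled members lie among called ones, with Ppbp, Pf4 (difference 0.50, 95% interval 0.10 to 0.91) and Cxcl15 between called genes. A promoter window of 300 bases, 250 before to 50 after the start, was given by RefSeq (GRCm38.p6) for 5 of the 6 tested members. The motif GGAATTTCC, a kappa B-type sequence that NF-kappa B proteins can bind, was searched on both strands. It was in the windows of Cxcl1, Cxcl2 and Cxcl3, all called, and not in those of Cxcl15 and Ppbp, and 0.317% of all 32851 mouse windows held it. The stretches around the match, plus strand, with the motif in capitals, are shown because these 3 genes moved together and share it.
Cxcl1, chr5:90891130-90891229: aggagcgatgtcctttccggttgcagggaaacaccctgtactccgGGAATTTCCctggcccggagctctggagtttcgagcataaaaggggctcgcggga
Cxcl2, chr5:90903758-90903857: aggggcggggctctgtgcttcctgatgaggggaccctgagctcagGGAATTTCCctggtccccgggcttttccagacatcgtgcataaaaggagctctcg
Cxcl3, chr5:90785984-90786083: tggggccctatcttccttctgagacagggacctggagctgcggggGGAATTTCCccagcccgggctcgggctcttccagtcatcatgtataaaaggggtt
The motif begins 70, 96 and 72 bases before the start of Cxcl1, Cxcl2 and Cxcl3. The stretches around it differ, with 35 to 44 of 100 bases, those of the motif included, identical in ungapped pairs. A match is a description of these letters, and binding was not measured.

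The markers of the cells these chemokines attract did not all follow them. None of the 11 tested neutrophil markers passed, with a median difference of 0.13, and their median level was 7.62 to 7.92 in the rCNT pools, 6.63 to 7.28 in the SES pools and 6.51 to 6.71 in the Ctrl pools. Differences ran from -0.84 to 1.19. In 4 of the 11 every rCNT pool lay above every SES pool, and in 0 below. Over all genes tested these shares were 17.4% and 14.4%. S100a9, a calcium-binding protein abundant in neutrophils, stood at 10.62, 14.14 and 13.34 after rCNT, against 13.75, 13.61 and 14.03 after SES and 13.87, 13.71 and 13.06 in Ctrl. The groups overlapped, with rCNT 4 lowest of all. The difference, the lowest of the list, had a 95% interval of -2.56 to 0.88. Csf3r, the G-CSF receptor, differed by -0.35 ± 0.14 (-0.63 to -0.06). The markers named here, S100a9 and Csf3r, both lay on the lower side, unlike the list median. Of the receptors for these chemokines, Cxcr2 differed by 0.97 and did not pass. Cxcr1 was lower in rCNT than in SES, and is described with the SES levels below. In whole-lung RNA, more cells of a type and more RNA per cell cannot be told apart, here and for every cell type below.

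Eosinophil markers were higher in 2 of 5 tested. Prg2, the major basic protein of eosinophil granules, stood at 8.08, 8.68 and 9.31 in rCNT, against 5.70, 5.62 and 5.84 in SES and 5.46, 5.46 and 5.42 in Ctrl, and only 1 SES pool was above the 40th percentile. The difference was 2.71 ± 0.33 (adjusted p = 2.57e-05). Ccr3, the eotaxin receptor, stood at 8.28, 9.10 and 9.55 after rCNT, against 7.23, 6.98 and 7.36 after SES and 7.08, 7.31 and 7.34 in Ctrl, with no overlap between rCNT and SES (1.77 ± 0.30). Siglecf, shared by eosinophils and alveolar macrophages, differed by -0.11 (-0.60 to 0.38).

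Of 12 tested monocyte and recruited macrophage markers 10 passed, all on the higher side (median 0.97). Cd14, a lipopolysaccharide co-receptor, stood at 12.60, 12.58 and 12.54 in the rCNT pools, against 10.94, 10.73 and 11.08 in the SES pools and 10.62, 10.38 and 10.38 in the Ctrl pools, with no overlap between any of the groups (1.53 ± 0.17, adjusted p = 8.63e-06). Mmp12, macrophage elastase, differed by 2.71 ± 0.45, with rCNT 4 at 7.83, rCNT 5 at 9.11 and rCNT 6 at 10.38. Csf1r, expressed by nearly all macrophages, differed by -0.10 (-0.49 to 0.29). The count of 10 was 3 without SES 11, 4 without SES 10 and 4 without rCNT 6.

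Alveolar macrophage genes moved both ways (3 higher and 2 lower of 11). Fabp1, a fatty acid-binding protein of these cells in mice, stood at 8.32, 9.02 and 7.97 after rCNT, against 10.32, 10.58 and 10.49 after SES and 11.01, 10.70 and 10.46 in Ctrl. All rCNT pools lay below the others, and the difference was -2.00 ± 0.27 (adjusted p = 6.31e-05). Abcg1, a cholesterol exporter, was lower by the same test (-0.78 ± 0.16), while Chil3 was higher (1.42 ± 0.40) with overlapping pools. The count of 5 was 2 without rCNT 6 and 2 without SES 11.

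**Figure D2:**
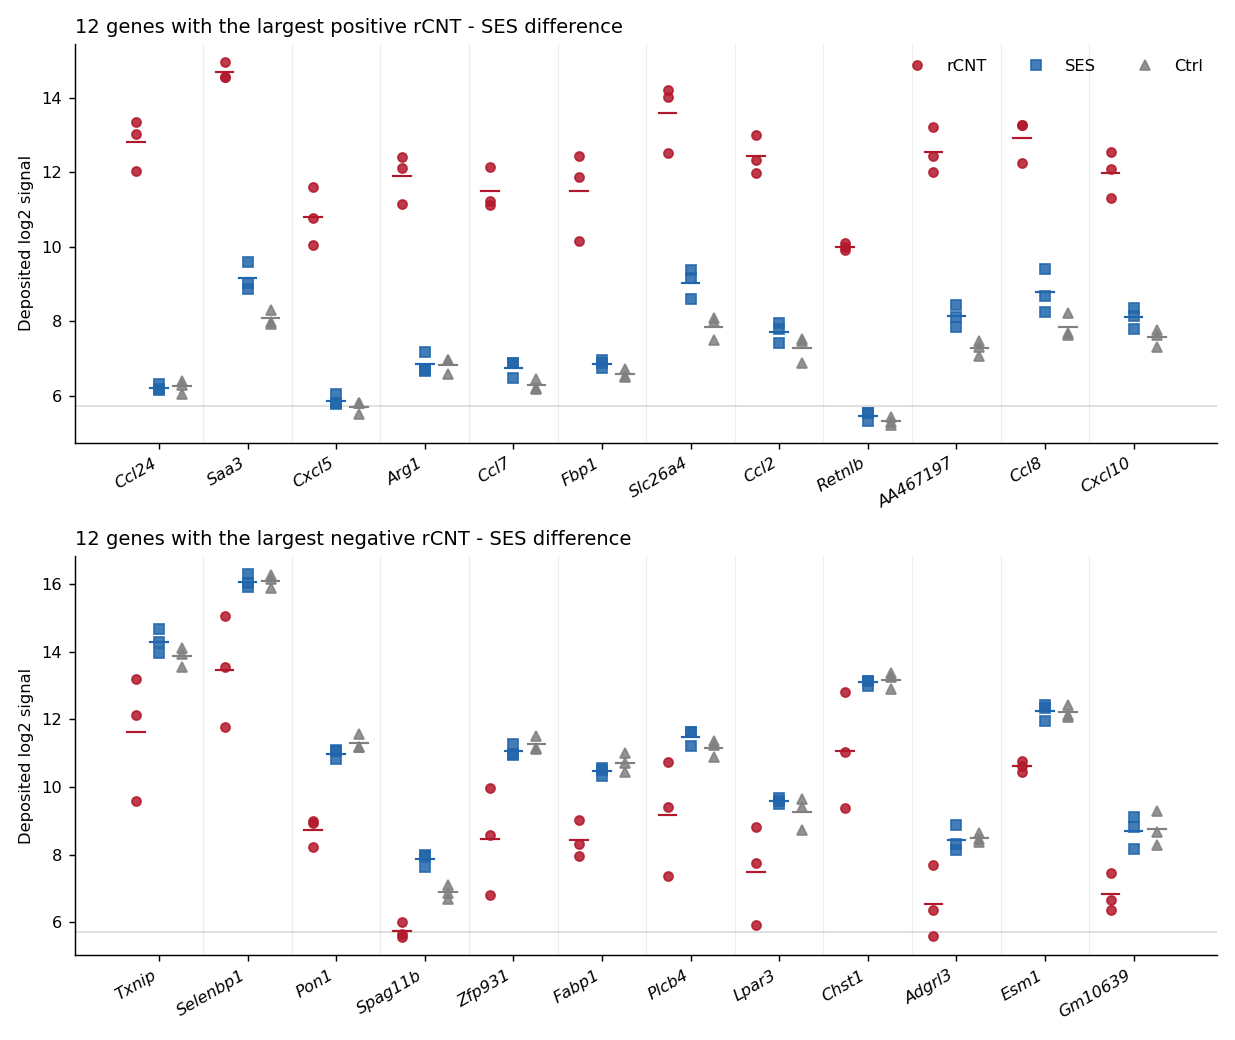
Deposited log2 signal (y axis) of each pool for the 12 highest and the 12 lowest genes (x axis) whose rCNT and SES pools do not overlap, with rCNT as red circles, SES as blue squares and Ctrl as grey triangles. Horizontal ticks are group means and the grey band is the 40th percentile of the spots (5.69 to 5.75). SES stays near Ctrl for most genes, and rCNT 4 lies far below rCNT 5 and 6 in Txnip, Selenbp1, Zfp931, Plcb4, Lpar3 and Chst1.

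Several cytokines of type 2 immunity were higher after rCNT. Il33, the alarmin, stood at 12.91, 13.69 and 14.03 in rCNT, against 11.61, 11.55 and 11.55 in SES and 11.31, 11.28 and 11.19 in Ctrl. The groups were fully separate, with SES slightly above Ctrl, and rCNT minus SES was 1.97 ± 0.21 (adjusted p = 8.63e-06). Among 11 tested cytokines, alarmins and receptors of this arm, 5 were higher and 1 lower, with a median of 0.38. The lower one was Tslp, another epithelial alarmin (-0.63 ± 0.17). Il13 stood at 5.76, 7.82 and 7.52 in the rCNT pools, against 5.23, 5.19 and 5.42 in the SES pools and 5.23, 5.17 and 5.18 in Ctrl, so SES and Ctrl were below the 40th percentile and the size is uncertain. Il4 rose by 1.78 ± 0.33 and its receptor chain Il4ra by 0.62 ± 0.18, although a second spot of Il4ra gave -0.26. The IL-33 receptor gene Il1rl1 was not among the genes tested.

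Mucus and goblet cell genes were higher in 11 of 11 tested (median 2.06). In 8 of the 11 all SES pools were above the 40th percentile. Slc26a4, the anion exchanger pendrin, stood at 12.51, 14.01 and 14.21 after rCNT, against 9.15, 8.59 and 9.38 after SES and 7.49, 8.08 and 7.99 in Ctrl. The 3 groups did not overlap, and the difference between rCNT and SES was 4.32 ± 0.44 (adjusted p = 4.91e-06). Agr2, a disulfide isomerase needed for mucin folding, stood at 11.71, 11.96 and 12.52 after rCNT, against 8.34, 7.87 and 8.97 after SES and 7.13, 6.90 and 7.58 in Ctrl, a difference of 3.52 ± 0.35. Spdef, the transcription factor of goblet cells, differed by 1.23 ± 0.15, the smallest of the 11. Clca1, a secreted goblet cell protease, varied most. It stood at 11.34, 15.63 and 15.01 in rCNT, against 8.92, 7.64 and 12.16 in SES and 7.33, 7.14 and 7.61 in Ctrl, so that SES 12 was above rCNT 4, and the difference was 4.72 ± 1.10. The mucins Muc5ac and Muc5b differed by 2.92 ± 0.41 and 2.00 ± 0.39. Leaving out any one rCNT or SES pool left 8 to 11 of the 11 called.

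All 10 arginase, resistin-like and chitinase-like genes were higher (median 1.89). In 9 of the 10 all SES pools were above the 40th percentile. Arg1, which consumes arginine in type 2 macrophages, stood at 11.14, 12.13 and 12.40 after rCNT, against 6.69, 6.68 and 7.18 after SES and 6.95, 6.95 and 6.60 in Ctrl, and SES overlapped Ctrl (4.55 ± 0.50, adjusted p = 8.63e-06). Retnlb was at 9.92, 10.09 and 9.98 in rCNT, against 5.53, 5.53 and 5.33 in SES and 5.42, 5.22 and 5.29 in Ctrl. All SES and Ctrl pools were below the 40th percentile, so its difference of 4.22 ± 0.33 is uncertain in size. Chil4 differed by 2.75 ± 0.40 and Retnlg by 2.00 ± 0.38.

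Retnla, a resistin-like protein of type 2 macrophages and airway epithelium, was the member of this list in which SES stood farthest from Ctrl. It was at 17.49, 17.97 and 17.55 in rCNT, against 15.41, 15.37 and 15.72 in SES and 13.91, 13.78 and 13.47 in Ctrl, and the 3 groups did not overlap. The rCNT 5 value equals the highest of the whole table, 17.97. The rCNT minus SES difference was 2.25 ± 0.42 (adjusted p = 0.0012). The motif TTC and GAA with any 4 bases between them, which STAT6 can bind, was in 6.95% of all windows on either strand. It was in the windows of Retnla, its relative Retnlg and Ccl17, shown with the match in capitals (plus strand).
Retnla, chr16:48842419-48842518: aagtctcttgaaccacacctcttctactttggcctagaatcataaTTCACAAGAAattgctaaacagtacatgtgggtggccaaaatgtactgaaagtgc
Retnlg, chr16:48872491-48872590: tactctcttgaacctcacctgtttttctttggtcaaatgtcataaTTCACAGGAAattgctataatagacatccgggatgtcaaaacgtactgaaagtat
Ccl17, chr8:94810254-94810353: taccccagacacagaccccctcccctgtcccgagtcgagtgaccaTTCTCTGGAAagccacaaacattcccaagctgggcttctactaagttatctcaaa
The Retnla and Retnlg stretches, lined up on the motif, share 75 of 100 bases, and Ccl17 shares 36 and 32 with them. Of the 6 genes of the arginase list with a window, 2 held the motif.

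Acute phase genes, which the liver and the inflamed lung make, were higher in 13 of 14 (median 1.67). In 10 of the 14 tested all SES pools were above the 40th percentile. Saa3, a serum amyloid A of macrophages and epithelium, stood at 14.56, 14.55 and 14.96 in the rCNT pools, against 8.85, 9.03 and 9.58 in the SES pools and 7.94, 7.99 and 8.30 in Ctrl. The groups were separate, with SES above Ctrl, and the rCNT minus SES difference was 4.84 ± 0.60 (adjusted p = 2.88e-05). Saa1 had 12.64, 12.39 and 13.11 in rCNT, against 8.26, 8.44 and 8.37 in SES and 8.02, 7.50 and 8.11 in Ctrl (3.84 ± 0.40). Serpina3n, a protease inhibitor, and Lcn2, which binds bacterial iron carriers, differed by 1.81 ± 0.26 and 1.67 ± 0.30. Lbp, which carries lipopolysaccharide, did not pass (0.12, -0.22 to 0.47).

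In the IL-1, IL-6 and TNF families 9 of 20 genes were higher and 1, Il18, was lower (-0.85 ± 0.18), with a median of 0.45. Il6 stood at 8.02, 8.66 and 9.20 after rCNT, against 5.91, 5.63 and 5.96 after SES and 5.46, 5.54 and 5.58 in Ctrl, with 1 SES pool below the 40th percentile (2.74 ± 0.24, adjusted p = 1.02e-06). Il1r2, the decoy receptor of IL-1, differed by 2.13 ± 0.31, Il1b by 2.09 ± 0.43 and Socs3, a brake on IL-6 signalling, by 1.35 ± 0.22. The NF-kappa B inhibitor Nfkbia differed by 0.07 (-0.27 to 0.41). Without SES 11 the count of 10 was 5.

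The chemokine receptors were higher in 5 of 12 and lower in 2, a count of 7 that was 4 without rCNT 6 and 2 without SES 10 or SES 11. Ccr2, which brings monocytes to tissue, differed by 1.19 ± 0.36, and Ackr1, a chemokine-binding receptor of venules and red cells, by 1.11 ± 0.17. Of 10 chemokines for lymphocytes 3 were higher and 2 lower (median -0.06). Cxcl13, the B cell chemokine, stood at 10.18, 10.06 and 10.61 after rCNT, against 7.11, 7.38 and 6.75 after SES and 6.68, 6.52 and 6.57 in Ctrl, with no overlap between rCNT and SES (2.88 ± 0.33). Cx3cl1 and Cxcl14 were lower (-0.66 ± 0.12 and -0.62 ± 0.17). Among 11 adhesion molecules Itgax, Selp and Selplg were higher and Itgam and Icam2 lower. Itgam, an integrin chain of myeloid cells, differed by -0.74 ± 0.15 on its brightest spot and by 0.11 when its spots were averaged, and the list count of 5 was 3 without SES 11.

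Interferon-induced genes were higher in 10 of 19 (median 0.91). Isg15, a ubiquitin-like protein, stood at 13.48, 13.03 and 13.11 in rCNT, against 10.29, 10.98 and 11.70 in SES and 11.19, 11.24 and 11.32 in Ctrl. The SES pools spread around Ctrl, and the difference was 2.23 ± 0.31 (adjusted p = 8.93e-05). Zbp1 and Rsad2, both antiviral, differed by 1.80 ± 0.26 and 1.56 ± 0.22. The guanylate-binding genes Gbp2 and Gbp3, typical targets of interferon gamma, differed by 0.02 (-0.44 to 0.47) and 0.12 (-0.37 to 0.60). The interferon-induced chemokines Cxcl10 and Cxcl9, which attract T cells through Cxcr3, were nonetheless higher, Cxcl10 with 12.10, 11.31 and 12.54 after rCNT, against 7.80, 8.15 and 8.36 after SES and 7.32, 7.62 and 7.77 in Ctrl (3.87 ± 0.55), and Cxcl9 by 2.26 ± 0.45. Second spots gave 1.58 for Cxcl10 and 1.25 for Cxcl9, so the size depends on the spot.

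The motif TTTC, any 2 bases and TTTC again, the core of the interferon-stimulated response element, was in 3.44% of all windows. It was in 8 of the 13 tested interferon genes with a window, of which 4 were called and 4 were not. The stretches of Isg15, Rsad2 and Ifit1, all called, are shown on their own strand (minus, minus and plus) with matches on either strand in capitals.
Isg15, chr4:156200836-156200935: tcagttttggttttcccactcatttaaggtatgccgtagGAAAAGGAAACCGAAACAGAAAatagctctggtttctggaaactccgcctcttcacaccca
Rsad2, chr12:26456518-26456617: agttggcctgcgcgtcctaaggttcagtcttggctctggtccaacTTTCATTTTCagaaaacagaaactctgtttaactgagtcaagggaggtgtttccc
Ifit1, chr19:34640750-34640849: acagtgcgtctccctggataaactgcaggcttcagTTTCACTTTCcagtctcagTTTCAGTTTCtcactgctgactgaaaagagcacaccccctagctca
Isg15 held 3 overlapping matches, read on the opposite strand, Ifit1 held 2 and Rsad2 held 1.

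Cell division genes were higher after rCNT. Of 18 tested mitosis genes 17 passed, with a median of 1.70, and of 16 DNA replication genes 10 passed (median 0.69). Ube2c, which marks mitotic proteins for destruction, stood at 10.90, 10.50 and 10.79 in the rCNT pools, against 8.49, 8.35 and 8.90 in the SES pools and 7.80, 7.91 and 8.15 in Ctrl. The 3 groups did not overlap, and rCNT minus SES was 2.00 ± 0.31 (adjusted p = 0.000256). The mitotic kinases Plk1 and Aurka differed by 1.71 ± 0.28 and 1.72 ± 0.28. The median SES minus Ctrl value of the mitosis list was 0.72, with none of its genes past the adjusted threshold, and the median rCNT minus Ctrl value was 2.35. Bub1b was the one that did not pass (0.26, -0.71 to 1.23). Among the replication genes, Mcm5 of the helicase and Tk1 of nucleotide supply differed by 1.47 ± 0.22 and 1.36 ± 0.22, while the helicase members Mcm4 and Mcm7 differed by -0.02 (-0.59 to 0.56) and 0.00 (-0.72 to 0.72).

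Promoters of mitosis genes are known to carry CCAAT boxes and a cell cycle homology region, TTTGAA. These letters were in 13 and 11 of the 15 tested mitosis genes with a window, against 37.4% and 17.9% of all windows (either strand). CCAAT was more common in cholesterol synthesis genes (7 of 7). It was nearly as common in endoplasmic reticulum stress genes (10 of 12), MHC class II and costimulation genes (5 of 6), clock genes (12 of 15) and p53 targets (8 of 10). In complement genes it was rare (1 of 9). For TTTGAA, 10 of the 11 holders were called, and 1 of 13 replication genes held it. The upstream stretches of Cdk1, the mitotic kinase (minus strand), and Ube2c (plus strand) span all their matches before the start, in capitals for both motifs.
Cdk1, chr10:69352922-69353120: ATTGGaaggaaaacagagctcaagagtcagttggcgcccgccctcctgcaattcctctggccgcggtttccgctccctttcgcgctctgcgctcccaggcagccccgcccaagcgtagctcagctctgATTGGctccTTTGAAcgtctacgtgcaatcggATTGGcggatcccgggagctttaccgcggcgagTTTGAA
Ube2c, chr2:164769701-164769905: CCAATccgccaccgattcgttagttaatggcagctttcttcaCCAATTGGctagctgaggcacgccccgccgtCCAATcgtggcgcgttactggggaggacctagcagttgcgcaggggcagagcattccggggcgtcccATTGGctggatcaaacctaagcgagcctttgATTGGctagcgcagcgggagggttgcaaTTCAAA
Cdk1 differed by 1.72 ± 0.29 on its brightest spot and by -0.03 on its other spot. In Ube2c a pair of CCAAT matches on opposite strands overlap. In all, 11 motifs were searched, and those described were picked after their matches were seen. For every motif a listed gene counted if any of its windows held it. The shares over all windows count single windows, so the 2 are not on the same unit.

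**Figure D3:**
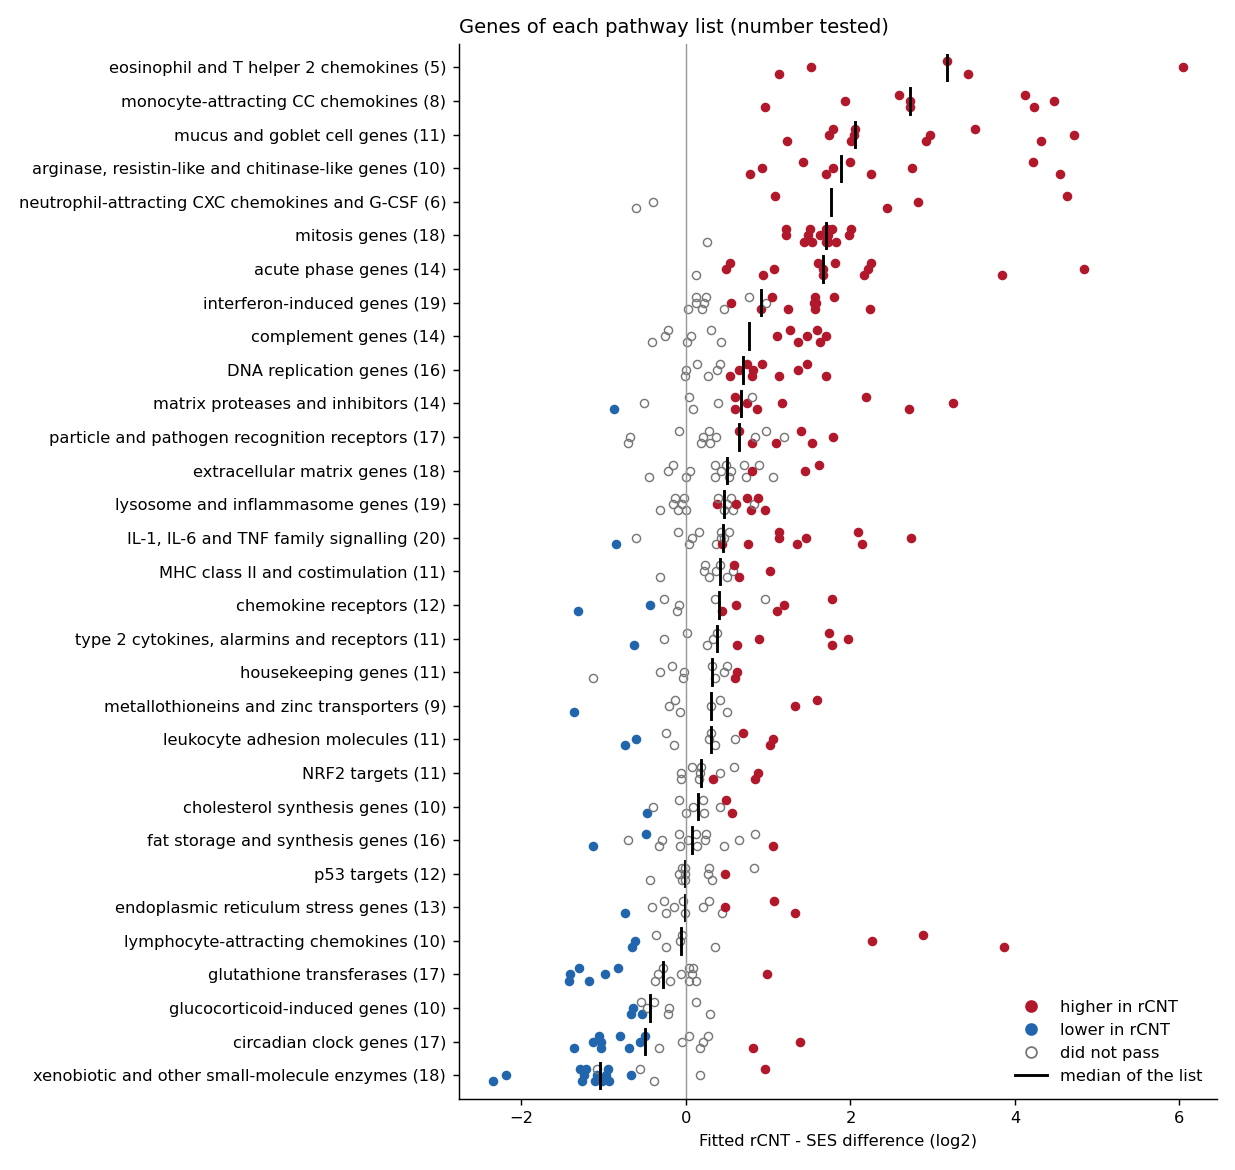
Fitted rCNT minus SES difference (x axis, log2) of every tested gene in each pathway list (y axis, number tested in brackets), in red where higher in rCNT, in blue where lower and open where it did not pass. Black bars are list medians, from 3.17 for eosinophil and T helper 2 chemokines to -1.05 for xenobiotic enzymes.

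On the lower side, enzymes that handle foreign and other small molecules were the list with the most lower members (13 lower and 1 higher of 18, median -1.05). Pon1, paraoxonase, stood at 8.99, 8.94 and 8.23 after rCNT, against 11.10, 10.82 and 11.06 after SES and 11.58, 11.17 and 11.18 in Ctrl. All rCNT pools were below the others, and the difference was -2.19 ± 0.24 (adjusted p = 8.77e-06). Cyp2f2, the cytochrome P450 of club cells, stood at 15.77, 15.38 and 15.45 in rCNT, against 16.81, 16.61 and 16.80 in SES and 16.75, 16.66 and 16.83 in Ctrl, and SES overlapped Ctrl (-1.25 ± 0.18). The flavin monooxygenase Fmo2 and the methyltransferase Inmt were lower too (-1.28 ± 0.24 and -1.26 ± 0.21), and so was the epoxide hydrolase Ephx1 (-0.94 ± 0.15). Cyp1b1 went the other way (0.96 ± 0.16). Cyp1a1 differed by -1.08 with a wide interval (-2.88 to 0.72) and did not pass.

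Glutathione transferases split by member, with 6 lower, 1 higher and 10 not past the threshold of 17. Gsta3 and Gstm1 were lower (-1.42 ± 0.23 and -1.18 ± 0.19), while Gsto1, the omega-class enzyme, was higher (0.98 ± 0.19). NRF2 target genes, the antioxidant program, were higher in 3 of 11. Gsr, glutathione reductase, and Gclc, of glutathione synthesis, differed by 0.87 ± 0.20 and 0.84 ± 0.20, and Nqo1 and Hmox1 by 0.16 (-0.34 to 0.67) and 0.42 (0.07 to 0.77). Without SES 11 none of the NRF2 targets passed. The metal-binding Mt2 rose by 1.59 ± 0.38 and the zinc importer Slc39a14 by 1.33 ± 0.18, 2 of 9 such genes, with 1 lower, and 1 call in all without SES 11.

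Some of the largest negative differences rested on rCNT 4. Txnip, which binds thioredoxin, was at 9.60, 13.20 and 12.13 in rCNT 4, 5 and 6, against 14.67, 13.96 and 14.28 in the SES pools and 14.11, 13.94 and 13.54 in Ctrl, a difference of -2.40 ± 0.58, and of -1.79 without rCNT 4 (adjusted p = 0.0335). A second spot of Txnip gave -0.95. Selenbp1, a selenium-binding protein, was at 11.78, 15.06 and 13.55 in rCNT, against 16.29, 16.02 and 15.90 in SES and 16.27, 16.14 and 15.88 in Ctrl, a difference of -2.34 ± 0.57, and of -1.88 without rCNT 4. In both, rCNT 4 lay far below the other rCNT pools, and all 3 rCNT pools lay below the SES pools. Zfp931, Plcb4, Lpar3, Chst1, Adgrl3 and Slc39a8 showed the same order of pools and did not pass without rCNT 4 (adjusted p = 0.0809, 0.112, 0.0885, 0.145, 0.0934 and 0.139, with differences of -1.62, -1.34, -1.36, -1.18, -1.42 and -0.88). Other spots of these genes gave smaller differences, -0.54 for Zfp931, -0.13 for Adgrl3 and -0.49 to -1.13 for Plcb4. Another 201 genes had a difference of at least 2-fold lower without passing. In 186 of them rCNT 4 lay more than 1 log2 unit below both other rCNT pools. Over all 16530 genes tested this held for 525, and among the 1160 called lower for 38. It held for 3 of the 25 that were at least 2-fold higher without passing. Those 25 are not a baseline, because a low rCNT 4 works against a higher difference. For the 201, a low rCNT 4 both deepens the difference and widens the spread, so the way they were chosen favours a low rCNT 4. Esm1, a proteoglycan secreted by endothelial cells, was even across pools, with 10.78, 10.44 and 10.61 after rCNT, against 12.44, 12.32 and 11.96 after SES and 12.08, 12.13 and 12.43 in Ctrl (-1.69 ± 0.24, adjusted p = 0.000123).

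Clock genes differed in 11 of 17, 9 lower and 2 higher, with a median of -0.50. Dbp, a transcription factor whose level follows the clock, stood at 12.90, 12.45 and 12.56 in rCNT, against 13.84, 14.39 and 13.82 in SES and 13.98, 13.70 and 13.58 in Ctrl (-1.36 ± 0.22, adjusted p = 0.000293). Its relatives Tef and Hlf were lower (-1.13 ± 0.21 and -1.03 ± 0.17), and so were the repressors Nr1d1 and Nr1d2 (-1.06 ± 0.34 and -1.03 ± 0.16). Nfil3, which binds the same DNA sites as Dbp but represses, was higher, with 10.22, 10.38 and 10.56 after rCNT, against 8.74, 8.87 and 8.99 after SES and 9.54, 9.57 and 9.37 in Ctrl (1.39 ± 0.21). SES and rCNT thus lay on opposite sides of Ctrl for Nfil3. The positive limb gave 0.26 for Arntl (-0.19 to 0.71) and 0.03 for Clock (-0.36 to 0.43). The count of 11 was 5 without SES 11, 7 without rCNT 5 and 7 without rCNT 6, and the hour of day of each dissection is not given in the labels.

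Timp1, the inhibitor of matrix metalloproteinases, stood at 13.81, 13.59 and 14.33 after rCNT, against 9.95, 10.13 and 10.48 after SES and 9.76, 9.68 and 9.96 in Ctrl, with no overlap between rCNT and SES (3.25 ± 0.46, adjusted p = 0.000112). Of 14 proteases and inhibitors 8 were higher and 1, Timp3, was lower (-0.88 ± 0.18), and without SES 11 the list held 5 calls in place of 9. Of 18 matrix genes 3 were higher, Spp1 (osteopontin, 1.61 ± 0.42), Thbs1 (thrombospondin, 1.44 ± 0.33) and Fn1 (fibronectin, 0.81 ± 0.27), a share of 16.7% that is near the 17.1% of all genes. The collagens Col1a1 and Col3a1 differed by 0.70 (-0.09 to 1.49) and 0.88 (0.20 to 1.56) and did not pass. The matrix count was 8 without rCNT 4, 5 without SES 12 and 0 without SES 11.

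Complement genes were higher in 7 of 14 (median 0.76). They included all 3 chains of C1q, which starts the classical pathway (C1qa 1.63 ± 0.25), and Cfb and Cfp of the alternative pathway (1.70 ± 0.29 and 1.27 ± 0.17). MHC class II genes were higher in 3 of 11, among them the peptide loaders H2-DMb1 and H2-DMa (1.02 ± 0.16 and 0.59 ± 0.16), while H2-Aa, a class II chain, differed by 0.50 (-0.03 to 1.04). The class II count was 5 without rCNT 4, and 1 without rCNT 5, SES 10 or SES 11. Of 17 receptors for particles and microbes 6 were higher, among them Trem2 (1.79 ± 0.45), Cd14 (described above) and Clec7a (1.40 ± 0.39), and the count was 1 without SES 11 and 2 without rCNT 6. Marco, a scavenger receptor of alveolar macrophages, differed by -0.68 (-1.43 to 0.08).

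Alveolar type 1 markers were lower in 4 of 10 (median -0.65), with Clic5 at 13.36, 13.86 and 13.81 in rCNT, against 14.96, 14.44 and 14.48 in SES and 14.54, 14.29 and 14.76 in Ctrl (-0.92 ± 0.17). The rCNT pools lay below all others, and Vegfa, a growth factor for vessels that these cells make, was lower (-0.81 ± 0.16). Endothelial markers were lower in 5 of 12 (median -0.58), and 3 passed without SES 11. Among them was Kdr, the Vegfa receptor (-0.71 ± 0.15, with 0.18 on another spot and -0.72 to -0.50 on the rest). Mesothelial markers were lower in 3 of 7 (median -0.77), led by Muc16 (-0.92 ± 0.19), and 1 passed without SES 11. Fibroblast markers were lower in 3 of 11 and higher in 1, with Pdgfra at -0.94 ± 0.19 and Pi16 at 0.84 ± 0.20.

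Alveolar type 2 markers were split, with the surfactant proteins Sftpd and Sftpa1 higher (0.76 ± 0.25 and 0.35 ± 0.10) and Etv5 and Abca3, the lipid pump of lamellar bodies, lower (-0.48 ± 0.13 and -0.45 ± 0.13). The count of 4 of 11 was 2 without rCNT 5, 1 without SES 11 and 0 without SES 10. Of 8 club cell markers Cyp2f2 and Cbr2 were lower and Hp higher, 3 calls that were 1 without rCNT 5, SES 10 or SES 11. Hemoglobin and heme genes of red cells were lower in 3 of 5 (median -0.75), and 1 passed without rCNT 5 or SES 11. The glucocorticoid-induced genes Tsc22d3, Klf9 and Pdk4 were lower (-0.67 ± 0.19, -0.65 ± 0.16 and -0.53 ± 0.16), 3 of 10 tested, a count of 0 without rCNT 5 or SES 11 and 1 without SES 10. Of 12 p53 target genes 1, Phlda3, was higher (0.48 ± 0.15), and none without SES 10 or SES 11. This share of 8.33% is below the 17.1% of all genes. The rCNT and SES pools of Phlda3 overlapped, and it gave 0.15 for rCNT minus Ctrl and -0.33 for SES minus Ctrl.

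Ciliated cell genes were higher in 3 and lower in 1 of 11. Foxj1, the master regulator of motile cilia, stood at 11.38, 11.31 and 11.28 after rCNT, against 9.13, 9.77 and 10.03 after SES and 10.56, 10.18 and 10.11 in Ctrl. The 3 groups did not overlap, with SES below Ctrl, and rCNT minus SES was 1.70 ± 0.20 (adjusted p = 1.2e-05). The axoneme gene Tekt1 differed by 0.65 ± 0.14 (0.37 on another spot) and the dynein gene Dnah5 by -0.04 (-0.36 to 0.29). Without SES 11, 2 ciliated genes were called. In smooth muscle, Actg2, Acta2 and Tagln were higher (1.42 ± 0.20, 0.81 ± 0.19 and 0.59 ± 0.13), 3 of 9 tested, and other spots of Acta2 gave 0.28 to 0.98.

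**Figure D4:**
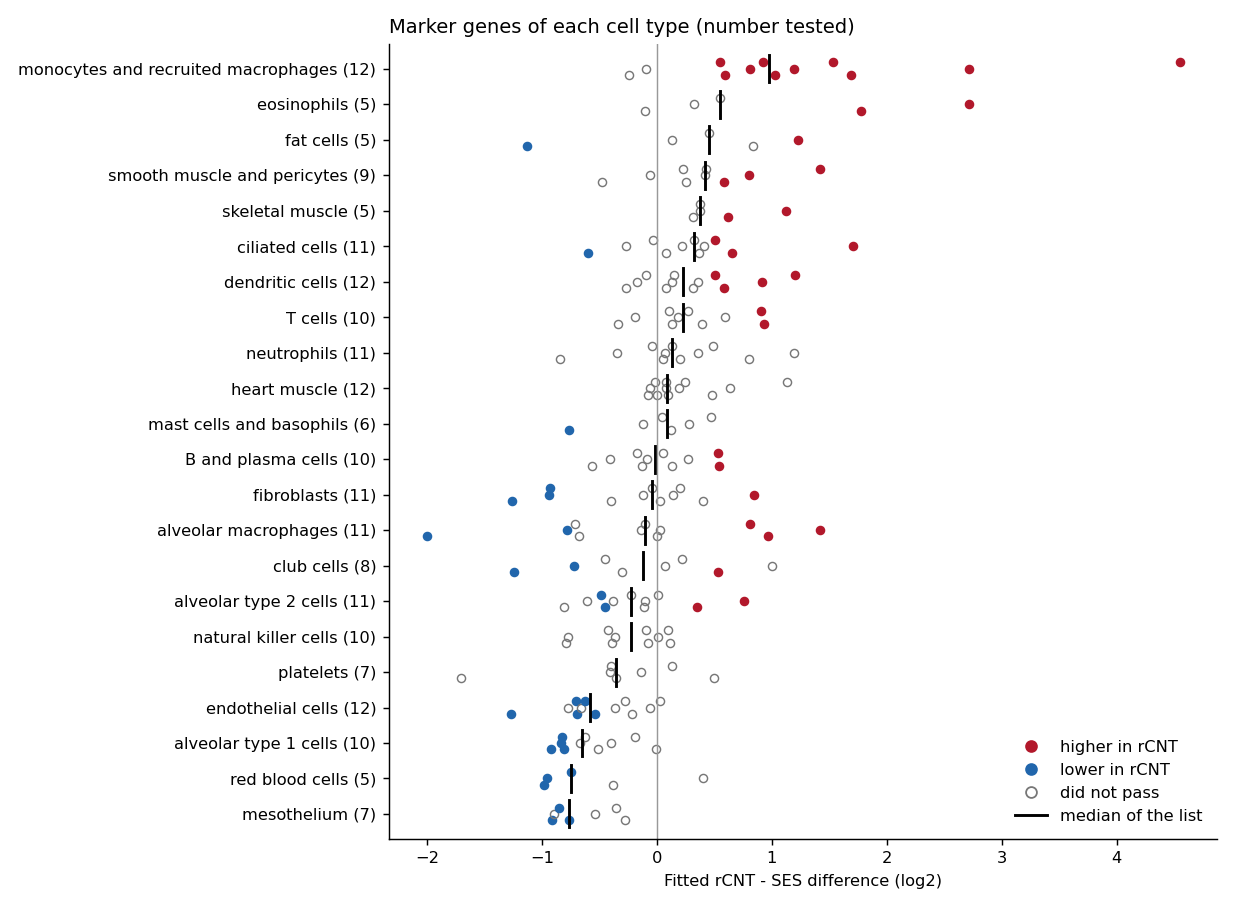
Fitted rCNT minus SES difference (x axis, log2) of every tested marker gene of each cell type (y axis, number tested in brackets), coloured as higher, lower or not past the threshold, with list medians as black bars. Medians run from 0.97 for monocytes and recruited macrophages to -0.77 for mesothelium, and no neutrophil, natural killer, platelet or heart muscle marker passed with all pools in the fit.

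Natural killer markers gave no call among 10 (median -0.23), and 1 without rCNT 6. Gzma, a killer cell protease, was at 11.42, 12.10 and 12.25 in rCNT, against 12.66, 12.81 and 12.96 in SES and 11.82, 12.21 and 12.32 in Ctrl, so the rCNT and SES pools were separate but the difference of -0.79 ± 0.33 did not pass (95% interval -1.48 to -0.10). In T cell markers, Foxp3 and Il2ra, both known from regulatory T cells, were the 2 of 10 called (0.94 ± 0.22 and 0.90 ± 0.20, with 1 call without SES 11), a share of 20.0% near the 17.1% of all genes, and Cd3e, carried by all T cells, differed by 0.11 (-0.36 to 0.58). Heart muscle genes gave no call among 12, and 1 without rCNT 4. Myh6, the atrial myosin, varied between pools within groups, with 10.48, 12.84 and 12.69 after rCNT, against 12.71, 11.75 and 12.71 after SES and 12.78, 10.37 and 12.54 in Ctrl.

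Dendritic cell markers were higher in 4 of 12, with Clec10a, a lectin shared with type 2 macrophages, at 1.21 ± 0.28 and Fscn1, of mature dendritic cells, at 0.91 ± 0.20. The count was 2 without rCNT 5 or SES 10 and 0 without SES 11. Of 10 B and plasma cell markers Mzb1 and Fcer2a were higher (0.53 ± 0.13 and 0.54 ± 0.17, with 0.24 and 0.27 on other spots of Mzb1), 1 without rCNT 5 or rCNT 6 and none without SES 11. Of 6 mast cell and basophil markers Kit was lower (-0.77 ± 0.15). The shares of these lists, 20.0% and 16.7%, were near the 17.1% of all genes. Of 19 lysosome and inflammasome genes 6 were higher, led by the protease Ctsk (0.97 ± 0.29), and 3 passed without SES 10 or SES 11. Of 13 endoplasmic reticulum stress genes 3 were higher and 1 lower, with Atf3, a stress-induced transcription factor, at 1.33 ± 0.21. Of 11 housekeeping genes Gusb and Pgk1 were higher (0.62 ± 0.16 and 0.60 ± 0.17, with -0.06 to 1.03 on other spots of Gusb), a share near the 17.1% of all genes.

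The genes described next were chosen, among those called between rCNT and SES, for their level after SES, so that level is a description, and none of them passed between SES and Ctrl. Cxcr1 was at 6.07, 7.30 and 6.41 in rCNT, against 8.31, 7.96 and 7.73 in SES and 6.90, 6.55 and 6.23 in Ctrl. The SES pools were above all others, rCNT overlapped Ctrl, and the rCNT minus SES difference was -1.32 ± 0.36 (adjusted p = 0.017), beside 1.40 for SES minus Ctrl and 0.09 for rCNT minus Ctrl. In the other 4 materials, group means of Cxcr1 ran from 6.92 to 8.31. Spag11b, a beta-defensin-like gene best known from the epididymis, was at 5.67, 6.02 and 5.57 in rCNT, against 7.96, 7.99 and 7.63 in SES and 6.88, 7.11 and 6.70 in Ctrl. Ctrl lay between the materials without overlap, with -2.15 ± 0.24 for rCNT minus SES, 0.98 for SES minus Ctrl and -1.18 for rCNT minus Ctrl. Only 1 rCNT pool was above the 40th percentile, so the sizes against rCNT are uncertain.

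The opposite pattern, SES below both other groups, held for Kri1, of ribosome assembly, with 11.27, 12.05 and 11.57 in rCNT, against 10.36, 10.89 and 10.66 in SES and 11.75, 11.80 and 11.96 in Ctrl (1.22 ± 0.22, adjusted p = 0.000828). Kmt5c, a histone methyltransferase, was at 11.16, 11.93 and 11.53 in rCNT, against 10.46, 10.98 and 10.87 in SES and 11.73, 11.86 and 12.16 in Ctrl (0.95 ± 0.21). For both, every rCNT pool lay above every SES pool, and the rCNT pools overlapped Ctrl. SES minus Ctrl was -1.23 for Kri1, -1.14 for Kmt5c, -0.99 for the stress gene Ddit4, -0.81 for the splicing factor gene U2af2 and -0.80 for Borcs6. Group means of Kri1 in the other 4 materials ran from 10.54 to 11.57, and those of Kmt5c from 10.79 to 11.76. On the other side, the largest positive SES minus Ctrl values among called genes were 2.24 for Clca1, 1.76 for Retnla, 1.40 for Cxcr1, 1.24 for Slc26a4 and 1.18 for Agr2.

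**Figure D5:**
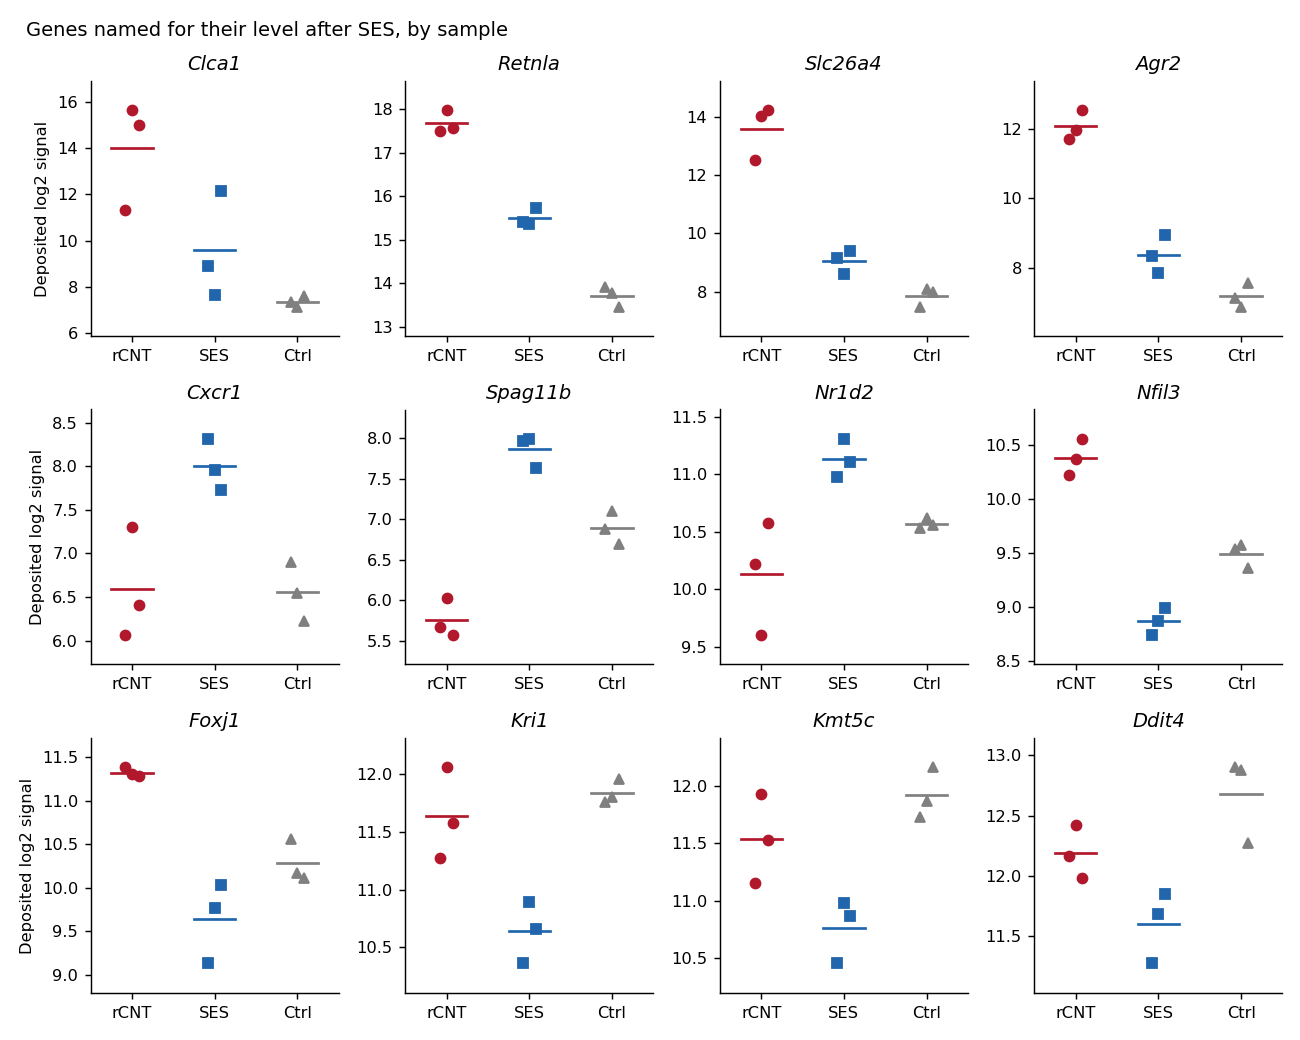
Deposited log2 signal (y axis) by pool in rCNT (red circles), SES (blue squares) and Ctrl (grey triangles), with group means as lines, for 12 genes shown for their level after SES. SES lies between rCNT and Ctrl in Retnla, Slc26a4 and Agr2, above both in Cxcr1, Spag11b and Nr1d2, and below both in Nfil3, Foxj1, Kri1, Kmt5c and Ddit4, while Clca1 spreads from 7.64 to 12.16 within SES.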

How the data were processed

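Whole-lung RNA of 24 samples was measured on Agilent 2-colour arrays, with 1 sample per dye. The deposited values are log2 signals, already normalized by the authors, whose steps are not given in the sources used here beyond Agilent Feature Extraction and limma, per the submitters' processing notes. Any pair of samples has nearly the same sorted values, so levels are relative. No normalization was added. For each gene the spot of highest mean signal was kept, and it was tested where it exceeded the 40th percentile of the spots in at least 3 samples. R 4.3.3 with limma 3.58.1 and statmod 1.5.0 fitted group and dye over all 24 samples, with the array as a random block (correlation 0.399), and tested rCNT minus SES with empirical Bayes and Benjamini-Hochberg adjustment at 0.05. The steps were tested on simulated data. The precision is limited by 3 arrays a group.

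The lists, and the choice of the 2 groups, were made with earlier results of these data known. Genes to describe were picked from the 12 highest and 12 lowest without overlap. Up to 3 called members per list were added by smallest p. Not all of these are named in the text. Left out were Fbp1 (rCNT minus SES 4.403) and AA467197 (4.205) of the highest, and Gm10639 (-1.669) of the lowest. Several list members, such as Saa2, Mmp19, Adamts4, Pycard and Lgmn, were left out too. The 5 called genes with the largest SES minus Ctrl value in each direction are all named. Other members named were chosen after their values were seen. Promoter windows are those of RefSeq (GRCm38.p6). Alternatives tried were the dye, array and slide terms, sample weights, filters, centring, spot choice, thresholds and leaving out each pool.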

Additional observations from a re-analysis of the deposited data

Results flagged for a closer look

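Spots with no gene name in the platform annotation were tested apart from the genes. Of 16650 such spots, 443 (2.66%) differed between rCNT and SES by limma at an adjusted p under 0.05, with 212 higher and 231 lower. In 198 of the higher ones every rCNT pool lay above every SES and every Ctrl pool, and in 212 of the lower ones every rCNT pool lay below them all. Called spots are chosen for a difference, which makes such separation likely among them. Its share over all unnamed spots is not given here. The largest difference was 4.11 ± 0.33 and the lowest -2.20 ± 0.24 (log2, SE). These spots are listed because they were kept out of the gene fit, and what they measure is not annotated here. Whether they match transcripts of the genes described was not tested.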

How the results depend on the processing

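All 2819 calls kept their sign in the alternatives run over the whole gene set, except 2815 within slide 1, 2611 within slide 2 and 2807 with spots averaged, and 2553 of 2553 still tested did at the 60th percentile filter. Against 2819 genes (1659 higher, 1160 lower), the count was 84 (62 and 22) with the array as a fixed term, 569 (473 and 96) with only the 6 samples, 1860 with a spread per group (730 lower), 1430 at an adjusted p under 0.01 (954 and 476) and 151 for a change of at least 1.5-fold (144 and 7). It was 4261 within slide 1 (2438 lower), 1910 within slide 2 (1053 higher) and 3979 with a slide term (2028 lower). Cyclic loess gave 2936 genes with 66% higher, against 58.9%. Leaving out 1 pool at a time gave 1177 to 3198 genes, 785 to 1612 higher and 392 to 1586 lower, and 752 were lower without the array shared by rCNT 4 and Graphite 16. Within slide 2, where 1 pool of each group with opposite dyes makes a turned sign no evidence of a reversal, the fitted value was of the other sign for Abca3 (0.14), Alas2 (0.002), Cbr2 (0.025), Hba-a1 (0.02), Hbb-b2 (0.75), Nr1d1 (0.43), Ramp2 (0.26), Retnla (-0.058), Tek (0.83), Timp3 (0.019), Tsc22d3 (0.58) and Upk3b (0.57), for Tpsb2 (-1.25) and for the red cell median (0.59). Itgam gave 0.11 with spots averaged. The median of the lymphocyte chemokines, -0.06, was 0.25 with the array fixed, 0.34 with spots averaged, 0.23 without the array of rCNT 4, and -0.16 to 0.19 without 1 pool. The cause of these changes was not tested. No paired analysis was possible because the rCNT and SES pools share no replicate number. Differences near the 40th percentile are limited by signal over background.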
